A study of Homo sapiens with 21 samples.

Results

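786-O is an established human line of clear cell renal carcinoma, a kidney tumour marked by stored lipid and by active hypoxia signalling. RNA-seq libraries of 786-O cells that had received guide sg2 against JMJD6 were set against libraries of 786-O cells that had received a control guide. There were 3 sg2 libraries, labelled JMJD6 KO, and 3 control libraries, labelled wild type at JMJD6, so that 6 of the 9 RNA libraries and of the 21 samples of the series entered the comparison. They were chosen by the guide named in their titles. All were grown in the same serum-containing medium. The 3 libraries of another JMJD6 guide, sg4, were used only as a check at the end. The series title ties JMJD6 to DGAT1 and to lipid metabolism in this tumour. The labels name triplicates without saying that each was a culture of its own, and the p-values given here thus cover only the spread from library to library. Neither do the labels say whether the infected cells were a pool or 1 clone. Their treatment text describes siRNA transfection, while titles and extraction text describe guides, and the groups here follow the guides.

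JMJD6 is a nuclear oxygenase that uses iron and 2-oxoglutarate. It is known for hydroxylating lysines, among others in the splicing factor U2AF2, and for a role at promoters and enhancers. DGAT1 makes triglyceride from diacylglycerol in the endoplasmic reticulum, and the product is stored in lipid droplets. A guide directs Cas9 to cut its target gene. The cut need not remove the mRNA, so the mRNA level of JMJD6 is not a measure of its protein.

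The sg2 libraries held from 14302316 to 16300347 estimated counts and the control libraries from 14224263 to 15549632. A total of 13333 genes passed the filter on low counts. Levels are given as CPM, counts scaled to a common library size with edgeR's TMM factors, and fold changes as log2 of sg2 over control with their standard error. This standard error was derived from the test given next, as the absolute log2 fold change divided by the square root of its F statistic. It is thus not an estimate apart from the p-value. Adjusted p-values are those of edgeR's quasi-likelihood test with Benjamini-Hochberg adjustment over all 13333 genes, and a gene was called at an adjusted p under 0.05. A value in brackets after a gene is its log2 fold change, and a value in brackets after a library is the edgeR adjusted p of the gene with that library left out. All 10 markers of 786-O cells were tested, and their summed level was between 8727 and 9196 CPM in the sg2 libraries and between 8354 and 8688 CPM in the control libraries. Most of it was VIM, with 85927, 81705 and 78373 counts in the sg2 libraries, against 75519, 81426 and 74307 in the control libraries. Of the 10 markers, 2 were called higher (20.0%) and none lower, against 5.45% and 6.00% of all genes. In bulk RNA, fewer cells that express a gene and less of its RNA per cell cannot be told apart.

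JMJD6 mRNA was lower in every sg2 library than in every control library. It was at 17.1, 16.1 and 17.3 CPM in the sg2 libraries, against 41.6, 41 and 44.6 CPM in the control libraries. The 3 sg2 values lay close together and far from the controls. The fold change was 0.397 (log2 fold change −1.33 ± 0.0895, edgeR adjusted p = 1.6e-08), so that a part of the mRNA remained. Per length, the level was 12.5 ± 1.09 TPM with sg2 and 34 ± 2.39 TPM with the control guide (SD, n = 3 each). Both RefSeq transcripts of the gene were lower with sg2. The longer one, of 5423 bases, had 142, 135 and 142 estimated counts in the sg2 libraries, against 325, 318 and 317 in the control libraries. The shorter one, of 1822 bases, had 133, 90 and 111 in the sg2 libraries, against 291, 310 and 308 in the control libraries. Around JMJD6 on chromosome 17, 10 of 15 protein-coding neighbours were tested, and 1 of them (10.0%, against 11.4% of all genes) was called. This was UBE2O, a ubiquitin-conjugating enzyme (log2 fold change −0.21 ± 0.0628, edgeR adjusted p = 0.0331). It was not called without sg2 library 1 (0.131), sg2 library 2 (0.0884), control library 1 (0.131) or control library 3 (0.107). The nearest genes on either side, MXRA7 and METTL23, had log2 fold changes of −0.07 and −0.06 and were not called.

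DGAT1 mRNA was also lower in each sg2 library. It was at 26.5, 25.4 and 27.3 CPM in the sg2 libraries, against 38, 39.3 and 40.8 CPM in the control libraries. The groups did not overlap (log2 fold change −0.58 ± 0.0829, edgeR adjusted p = 0.000125), and the fold change was 0.67 (n = 3 each). Per length, the level of DGAT1 was 14.5 ± 0.674 TPM with sg2 and 22.0 ± 1.16 TPM with the control guide (SD).

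**Figure D1:**
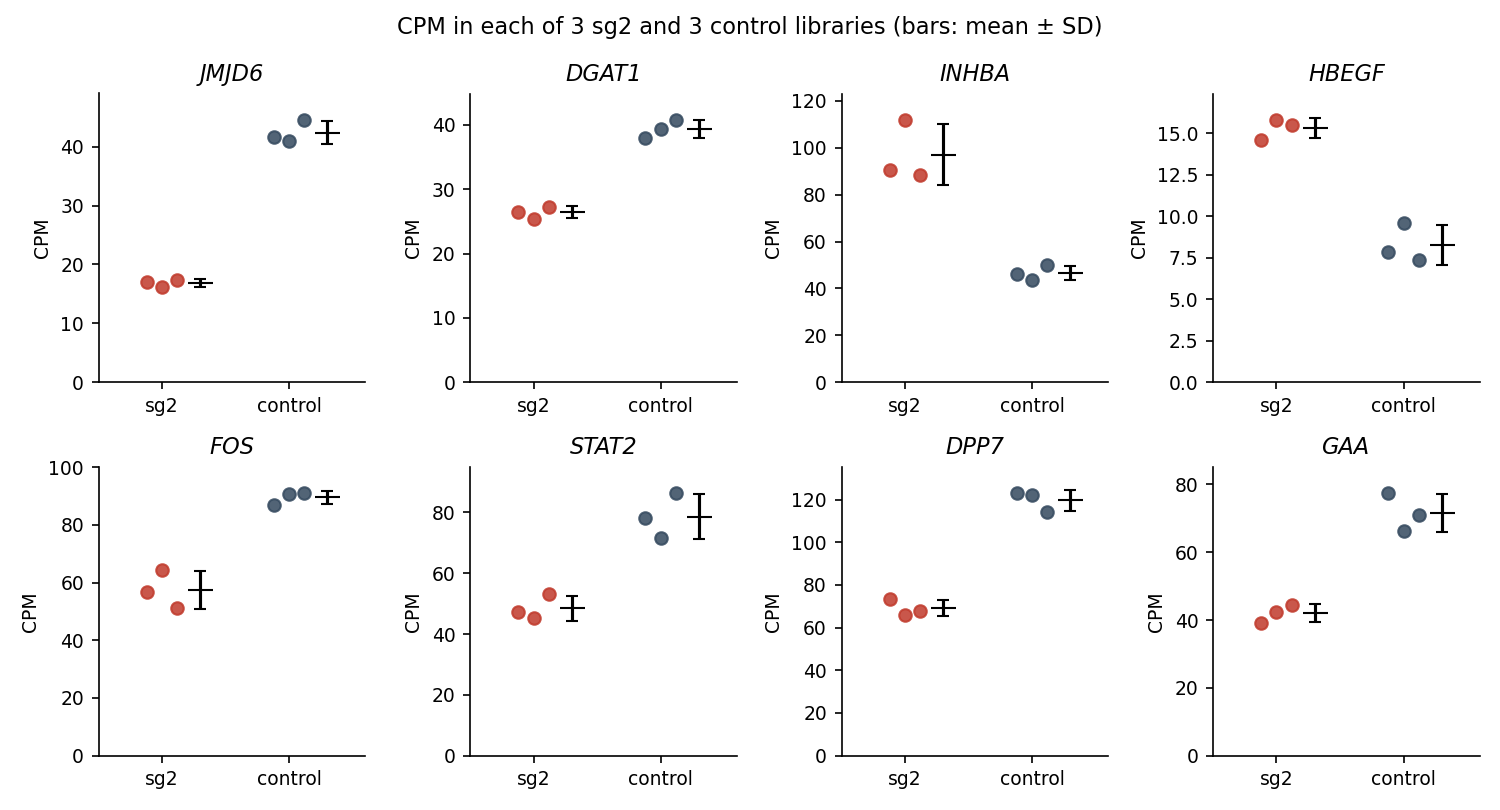
CPM (y axis, from 0) of 8 genes in each of the 3 sg2 and 3 control libraries, with mean ± SD as bars. JMJD6, DGAT1, FOS, STAT2, DPP7 and GAA lie lower in all sg2 libraries than in all controls, INHBA and HBEGF lie higher.

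Across the transcriptome, 726 genes (5.45% of those tested) were higher with sg2 and 800 (6.00%) were lower, 1526 or 11.4% in all. Called genes had a median absolute log2 fold change of 0.305, a fold of 1.24, and 172 called genes changed by a fold of at least 1.5, of which 54 were higher and 118 lower. The median log2 fold change of all tested genes was −0.0027. The groups did not overlap for 1932 genes with sg2 above (14.5%) and 1952 with sg2 below (14.6%). Of the 1526 called genes, 1471 had groups that did not overlap, so for a called gene the lack of overlap adds little. In the fifth of genes with the highest levels 13.5% were called higher and 8.89% lower, and in the fifth with the lowest levels 0.712% higher and 1.35% lower. The number called depended on the libraries. Without sg2 library 1 it was 317 higher and 416 lower, and without control library 1 it was 385 higher and 407 lower. Of the 151 called genes named by the rule given under processing, 91 were called whichever library was left out.

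**Figure D2:**
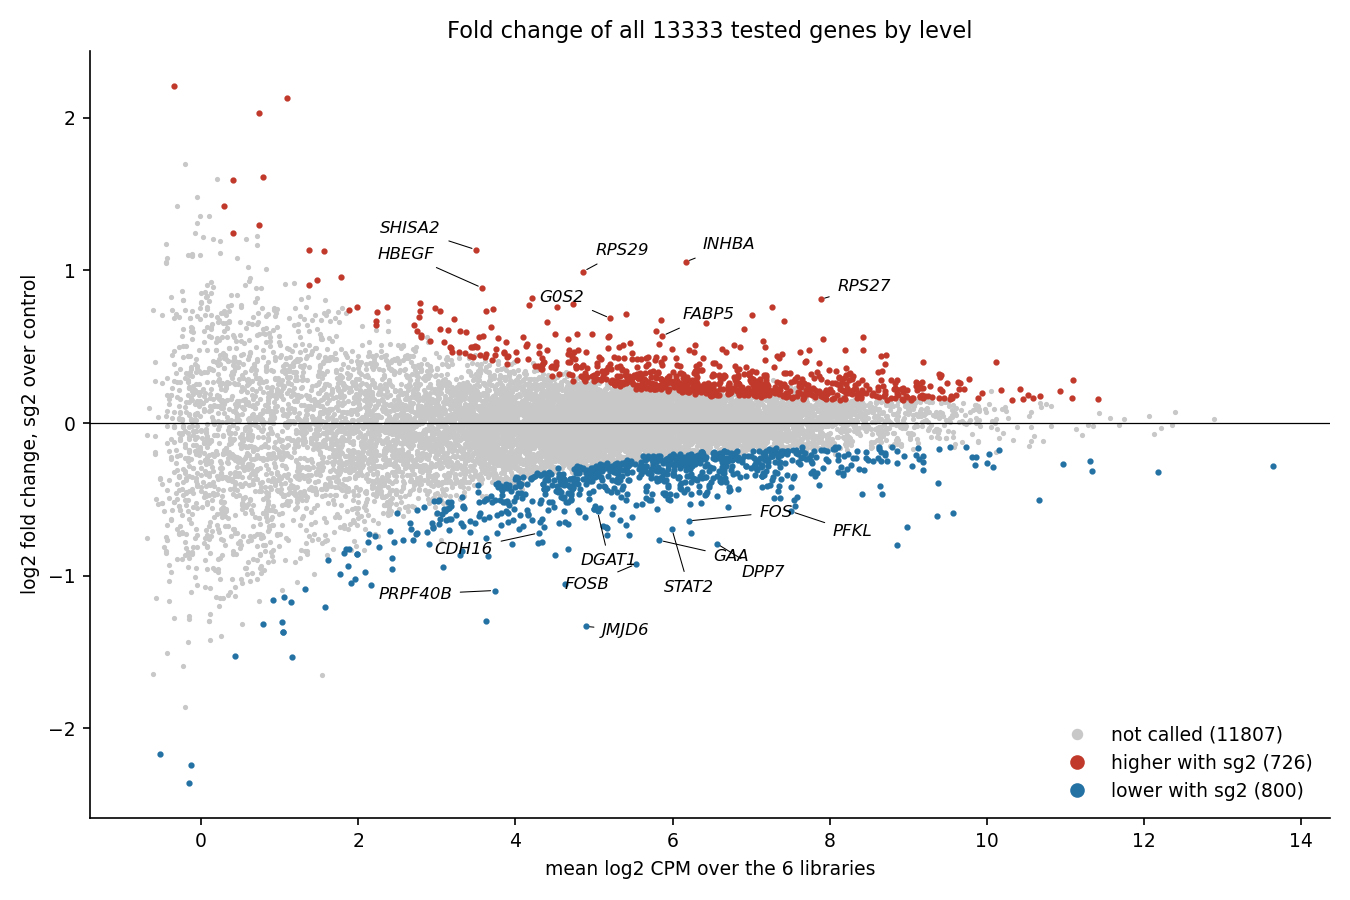
Log2 fold change of sg2 over control (y axis) against mean log2 CPM over the 6 libraries (x axis) for 13333 genes, with called genes in colour. JMJD6 is the largest decrease above a mean log2 CPM of 2, and the median size of the called changes is 0.305.

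Above a mean log2 CPM of 2, the largest increase was in SHISA2, of a family known from frogs to hold back growth factor receptors, at 15.5, 13.6 and 16.8 CPM in the sg2 libraries, against 7.37, 7.44 and 6.06 CPM in the control libraries (log2 fold change 1.14 ± 0.142, edgeR adjusted p = 3.05e-05). INHBA, which encodes the subunit of activin A, was at 90.7, 112 and 88.3 CPM in the sg2 libraries, against 46.2, 43.7 and 49.8 CPM in the control libraries (log2 fold change 1.06 ± 0.082, edgeR adjusted p = 8.12e-08). HBEGF, a ligand of the EGF receptor, was at 14.6, 15.8 and 15.5 CPM in the sg2 libraries, against 7.84, 9.59 and 7.34 CPM in the control libraries (log2 fold change 0.89 ± 0.135, edgeR adjusted p = 0.000236). For all 3 genes the lowest sg2 library stood above the highest control. IL7R, a cytokine receptor chain, was at 26.7, 31.3 and 28.5 CPM in the sg2 libraries, against 18.7, 17 and 15.4 CPM in the control libraries (log2 fold change 0.76 ± 0.105, edgeR adjusted p = 8.74e-05). FOXL1, a forkhead transcription factor, was at 33.5, 34.6 and 32.3 CPM in the sg2 libraries, against 23.2, 19.4 and 15.8 CPM in the control libraries (log2 fold change 0.78 ± 0.112, edgeR adjusted p = 0.000125). PRKCH, a protein kinase C (0.74), and SLC16A12, a transporter of the monocarboxylate family (0.75), rose too. Also among the 15 largest increases were RPS29, RPS27 and RPS21 of the small ribosomal subunit, ATP5ME of ATP synthase and TMEM258, a subunit of oligosaccharyltransferase, with log2 fold changes from 0.76 to 0.99. CRISPLD2, a secreted protein (log2 fold change 0.79 ± 0.2, edgeR adjusted p = 0.0139), lost its call without sg2 library 1 (0.0977), sg2 library 2 (0.0621), control library 1 (0.0684) or control library 3 (0.0535). TENM2, a teneurin (log2 fold change 0.76 ± 0.199, edgeR adjusted p = 0.0164), lost it without sg2 library 1 (0.0704) or control library 1 (0.0871). MROH6 (log2 fold change 0.75 ± 0.19, edgeR adjusted p = 0.013) lost it without sg2 library 1 (0.137) or control library 2 (0.0565).

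Above the same level, the largest decrease after JMJD6 was in CCDC183, a gene for a coiled-coil protein, at 7.2, 5.65 and 8.34 CPM in the sg2 libraries, against 17.8, 15.1 and 19.4 CPM in the control libraries (log2 fold change −1.30 ± 0.149, edgeR adjusted p = 1.15e-05). PRPF40B, a component of the U1 small nuclear ribonucleoprotein, was at 8.56, 6.73 and 9.91 CPM in the sg2 libraries, against 17.8, 16.5 and 19.8 CPM in the control libraries (log2 fold change −1.10 ± 0.141, edgeR adjusted p = 4.13e-05). Both genes were lower in every sg2 library than in any control. FOSB, an immediate early transcription factor, was at 38.1, 28.8 and 28.4 CPM in the sg2 libraries, against 63.5, 42.6 and 75.8 CPM in the control libraries. Its controls were widely spread, yet all lay above the sg2 libraries (log2 fold change −0.93 ± 0.143, edgeR adjusted p = 0.000267). SPMIP1, a sperm microtubule protein (−1.05), KCP, a secreted modulator of BMP signalling (−0.86), CHTF18, a clamp loader subunit (−0.83), and MIR34AHG, the host gene of miR-34a (−0.84), fell too. POU5F1 (−0.87) has near-identical pseudogenes and IGFL2-AS1 (−1.06) is an antisense gene, and the strand setting of the counting is not given in the sources used here, so both values are uncertain. PRRT2 (−0.95) and PDGFA-DT (−0.88) were called although their groups overlapped. PRRT2 lost its call without sg2 library 2 (0.0866), sg2 library 3 (0.051), control library 1 (0.11) or control library 3 (0.0618). PDGFA-DT lost it without sg2 library 1 (0.0952), sg2 library 2 (0.176), control library 1 (0.231) or control library 3 (0.114). BTBD19 (−0.86) lost it without control library 3 (0.0539). LUM, a matrix proteoglycan, had 6.21, 4.58 and 6.29 CPM in the sg2 libraries, against 17.7, 7.83 and 7.34 CPM in the control libraries (log2 fold change −0.94 ± 0.254, edgeR adjusted p = 0.0193). Control library 1 stood apart, and LUM was not called without sg2 library 1 (0.0618), sg2 library 2 (0.087) or control library 1 (0.262).

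**Figure D3:**
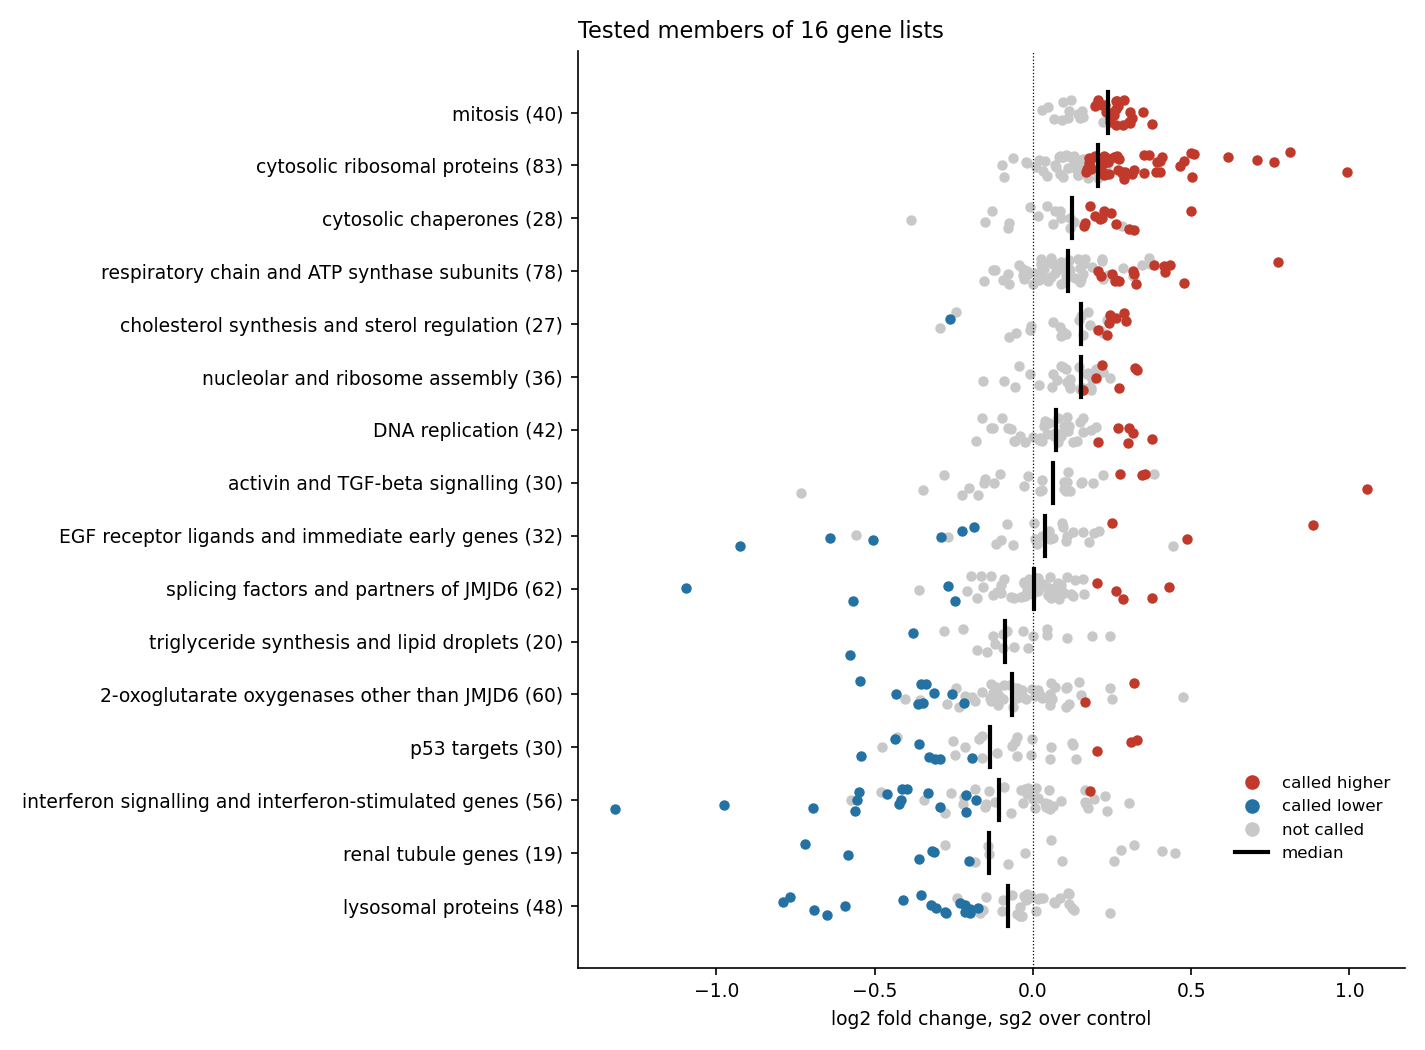
Log2 fold change of sg2 over control (x axis) for the tested members of 16 gene lists (number in brackets), with called members in colour and the median as a black bar. Called members of the mitosis and ribosomal protein lists lie to the right of 0, called lysosomal and renal tubule genes to the left.

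Of the 37 gene lists, that of lysosomal proteins had the largest share called lower. Of 48 tested genes for lysosomal enzymes and membrane proteins, 17 fell and 0 rose, against 6.00% called lower among all genes, and their median log2 fold change was −0.079. DPP7, a lysosomal dipeptidyl peptidase, was at 73.4, 66.1 and 67.9 CPM in the sg2 libraries, against 123, 122 and 114 CPM in the control libraries (log2 fold change −0.79 ± 0.062, edgeR adjusted p = 8.12e-08). GAA, the acid alpha-glucosidase that degrades glycogen, was at 39.2, 42.5 and 44.5 CPM in the sg2 libraries, against 77.4, 66.4 and 71 CPM in the control libraries (log2 fold change −0.77 ± 0.0751, edgeR adjusted p = 1.56e-06). The groups were far apart for both. SGSH, which removes sulfate from heparan sulfate, had 12.6 ± 1.93 CPM with sg2 and 20.3 ± 1.38 CPM with the control guide (SD, n = 3 each; log2 fold change −0.69). IDUA, the alpha-L-iduronidase, had 18.2 ± 1.4 CPM with sg2 and 28.6 ± 2.82 CPM with the control guide (log2 fold change −0.65). Chosen after their values were seen, ARSA (−0.59), TPP1 (−0.41), the protease CTSD (−0.32) and GLB1 (−0.28) also fell. These 8 genes were called whichever library was left out, while the number called fell to 10 without sg2 library 1 and to 10 without control library 1.

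Many lysosomal promoters carry the letters CACGTG, the core of the element to which TFEB and related factors bind. In the 250 bases upstream of the start, CACGTG stood in 10 of 31 lysosomal genes with a promoter in the RefSeq table, against 8.82% of all tested genes with one. It was in 7 of the 13 called lower and in 3 of the 18 not called. Over all genes it was in 7.97% of those called higher and 10.4% of those called lower. It is its own reverse complement, so both strands are covered. The upstream windows of the 2 lysosomal genes that fell most are shown, from RefSeq on GRCh38.p14, with each CACGTG in capitals. Such a match is a description and not a binding site.
DPP7 (chr9:137114734-137114983, minus strand): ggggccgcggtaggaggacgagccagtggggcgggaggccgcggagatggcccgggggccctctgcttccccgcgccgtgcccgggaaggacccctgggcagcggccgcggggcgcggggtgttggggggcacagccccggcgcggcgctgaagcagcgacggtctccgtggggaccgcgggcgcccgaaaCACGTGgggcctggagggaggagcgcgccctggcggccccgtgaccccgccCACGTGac
GAA (chr17:80101331-80101580, plus strand): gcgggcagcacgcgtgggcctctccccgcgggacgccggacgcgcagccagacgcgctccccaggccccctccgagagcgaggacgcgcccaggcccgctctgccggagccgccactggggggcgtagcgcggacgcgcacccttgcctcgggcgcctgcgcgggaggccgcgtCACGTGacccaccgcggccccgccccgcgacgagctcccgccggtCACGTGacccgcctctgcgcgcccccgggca

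A part of the genes that carry interferon signals or that interferon induces fell too. Of 56 tested, 16 fell (28.6%) and 1 rose (1.79%), against 6.00% and 5.45% of all genes, and the median log2 fold change was −0.11. STAT2, which with IRF9 carries type I interferon signals into the nucleus, was at 47.3, 45.2 and 53.1 CPM in the sg2 libraries, against 78.1, 71.5 and 86.3 CPM in the control libraries (log2 fold change −0.69 ± 0.078, edgeR adjusted p = 8.76e-06). UBA7, the activating enzyme for ISG15, was at 24.8, 24 and 28.7 CPM in the sg2 libraries, against 40.4, 33.5 and 40.6 CPM in the control libraries (log2 fold change −0.56 ± 0.0974, edgeR adjusted p = 0.000736). Chosen after their values were seen, BST2, or tetherin (log2 fold change −0.42 ± 0.0535, edgeR adjusted p = 3.65e-05), and the receptor kinase TYK2 (log2 fold change −0.33 ± 0.0589, edgeR adjusted p = 0.000935) fell as well. These 4 were called whichever library was left out, and the groups did not overlap for any of them, as for most called genes. The others depended on single libraries, and 5 genes of the list were called lower without sg2 library 1 and 6 without control library 1. OAS2, a synthetase whose product activates RNase L, had 46, 31 and 47 counts in the sg2 libraries, against 83, 66 and 91 in the control libraries (log2 fold change −0.98 ± 0.238, edgeR adjusted p = 0.0107). It was not called without control library 3 (0.0571). MX2 had 17, 5 and 19 counts in the sg2 libraries, against 33, 34 and 34 in the control libraries, with sg2 library 2 far below the other two (log2 fold change −1.32 ± 0.388, edgeR adjusted p = 0.0305). MX2 was not called without sg2 library 1 (0.0826), sg2 library 2 (0.132), control library 1 (0.0864), control library 2 (0.0663) or control library 3 (0.0881). Chosen after their values were seen, MX1 (−0.56), OAS1 (−0.55), IFI44L (−0.46), IFI6 (−0.40) and IRF9 (−0.41) fell, and none of these 5 kept its call whichever library was left out.

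The letters GAAA, then any 2 bases, then GAAA again, on either strand, are the core of the interferon-stimulated response element. They stood in the upstream windows of 19 of 41 genes of the list, against 2.31% of all tested genes. They were in 5 of the 12 genes called lower and in 14 of the 28 not called. Over all genes they were in 2.33% of those called higher and 2.55% of those called lower. The windows of BST2 and IFI44L are shown as members that fell and hold it, on GRCh38.p14 with the matches in capitals, which overlap in BST2.
BST2 (chr19:17405631-17405880, minus strand): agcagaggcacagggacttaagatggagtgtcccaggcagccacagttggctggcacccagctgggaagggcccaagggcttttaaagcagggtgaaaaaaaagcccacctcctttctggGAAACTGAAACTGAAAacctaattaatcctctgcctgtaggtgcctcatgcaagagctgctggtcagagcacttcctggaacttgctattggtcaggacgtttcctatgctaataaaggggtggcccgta
IFI44L (chr1:78620198-78620447, plus strand): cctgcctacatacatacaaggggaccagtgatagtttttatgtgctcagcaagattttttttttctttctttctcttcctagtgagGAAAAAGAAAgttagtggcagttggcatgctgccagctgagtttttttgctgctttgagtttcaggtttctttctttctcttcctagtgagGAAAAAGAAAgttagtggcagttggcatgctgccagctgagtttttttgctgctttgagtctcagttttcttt

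Genes of mitosis were higher with sg2. All 40 tested genes of the list had a positive log2 fold change, 25 rose and none fell, against 5.45% called higher among all genes, and the median was 0.24. CKS2, a subunit of cyclin-dependent kinases, was at 85.2, 93.7 and 86.9 CPM in the sg2 libraries, against 78.5, 67.3 and 58.7 CPM in the control libraries (log2 fold change 0.38 ± 0.0807, edgeR adjusted p = 0.00441). CCNB1, or cyclin B1, was at 124, 135 and 119 CPM in the sg2 libraries, against 101, 105 and 91.7 CPM in the control libraries (log2 fold change 0.35 ± 0.0642, edgeR adjusted p = 0.00128). ECT2, an exchange factor needed for cytokinesis, was at 257, 273 and 239.7 CPM in the sg2 libraries, against 208, 211 and 202 CPM in the control libraries (log2 fold change 0.31 ± 0.0553, edgeR adjusted p = 0.00101). The differences were small, with folds of 1.3, 1.27 and 1.24, and the groups did not overlap for any of the 3. Among the 10 members called whichever library was left out were also AURKA (0.27), CDC20 (0.29) and TPX2 (0.20), chosen after their values were seen. TTK, a checkpoint kinase (log2 fold change 0.31 ± 0.0999, edgeR adjusted p = 0.0469), was not called without sg2 library 1 (0.142), sg2 library 2 (0.209), control library 1 (0.241) or control library 2 (0.0516). Without sg2 library 1 the list had 12 called members, and it had 15 without control library 1.

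The letters TTTGAA, on either strand, match the element known as CHR in promoters of genes expressed in mitosis. They stood in 20 of 34 mitosis genes with an upstream window, against 8.27% of all tested genes. The share was 14 of 21 among those called higher and 6 of 13 among those not called. Over all genes it was 13.6% of those called higher, with the 14 mitosis genes among them, and 6.21% of those called lower. CKS2 and ECT2 are shown, on GRCh38.p14, with the match in capitals. In CKS2 it lies on the opposite strand and reads TTCAAA.
CKS2 (chr9:89310945-89311194, plus strand): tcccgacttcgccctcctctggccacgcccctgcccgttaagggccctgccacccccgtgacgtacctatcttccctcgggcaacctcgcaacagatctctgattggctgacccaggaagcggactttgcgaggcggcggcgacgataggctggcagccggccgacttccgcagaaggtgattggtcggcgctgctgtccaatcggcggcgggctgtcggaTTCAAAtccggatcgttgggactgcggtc
ECT2 (chr3:172750476-172750725, plus strand): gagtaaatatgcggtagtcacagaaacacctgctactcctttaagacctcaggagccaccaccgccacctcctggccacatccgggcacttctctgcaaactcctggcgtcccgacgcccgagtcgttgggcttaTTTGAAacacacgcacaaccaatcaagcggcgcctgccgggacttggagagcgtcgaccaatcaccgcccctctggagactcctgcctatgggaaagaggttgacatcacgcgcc

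**Figure D4:**
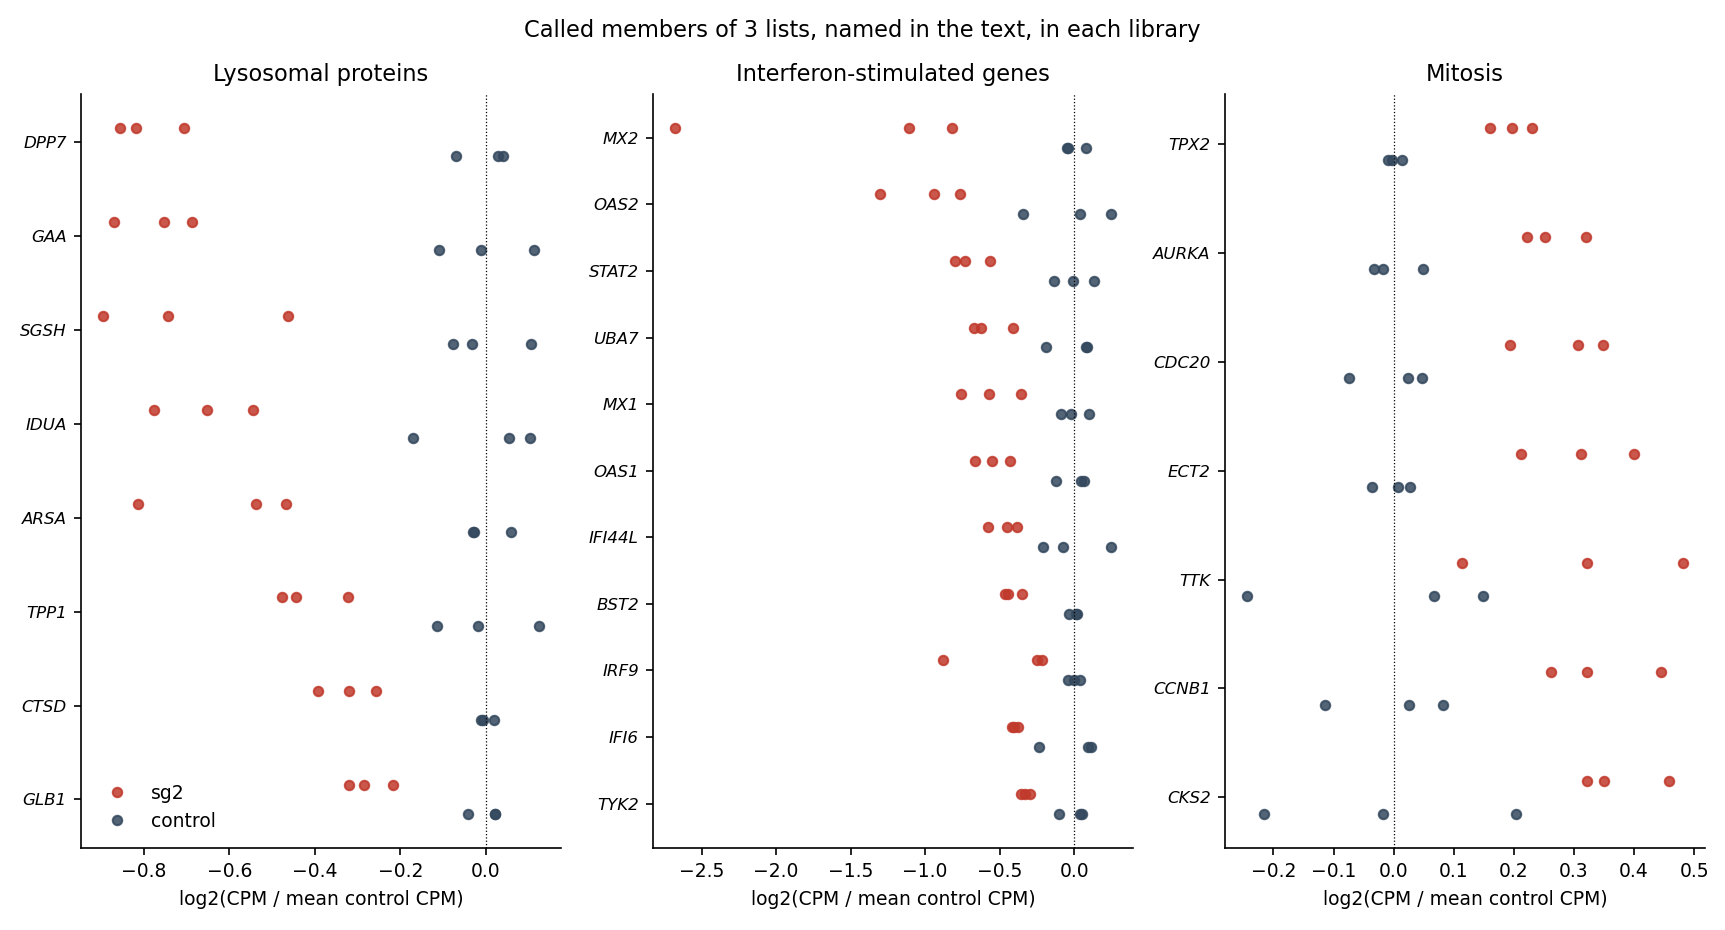
Log2 of CPM over the mean control CPM (x axis) for the called members of the lysosomal, interferon and mitosis lists that the text names, with a point for each sg2 and each control library. The 3 lysosomal values with sg2 lie to the left of all controls for every gene shown, and the spread between sg2 libraries is largest for MX2.

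Of 42 tested DNA replication genes, 6 rose (14.3%), none fell and the median log2 fold change was 0.074. Among all genes 5.45% were called higher and 6.00% lower. CDC6, which licenses origins (log2 fold change 0.38 ± 0.0768, edgeR adjusted p = 0.00292), and RRM2, a ribonucleotide reductase subunit (log2 fold change 0.30 ± 0.0653, edgeR adjusted p = 0.00485), kept the call whichever library was left out. The DNA polymerase subunit POLA1 was not called without sg2 library 2 (0.0562) or control library 1 (0.0834), and the clamp loader RFC3 not without sg2 library 1 (0.131), sg2 library 2 (0.199), control library 1 (0.0742), control library 2 (0.161) or control library 3 (0.0665). Nucleolar and ribosome assembly genes had 6 of 36 higher (16.7%), none lower and a median of 0.15. They included the RNA helicase DDX21 (0.33), DKC1, which makes pseudouridine (0.32), NPM1 (0.27) and NOLC1 (0.22). MYC itself was at 198, 191 and 204 CPM in the sg2 libraries, against 171, 161 and 161 CPM in the control libraries (log2 fold change 0.27 ± 0.0536, edgeR adjusted p = 0.00243), without overlap. Of 23 genes of the MYC list, 5 rose (21.7%) and 1 fell (4.35%). Among those that rose were TFRC, the transferrin receptor (0.31), and the mitochondrial co-chaperonin HSPE1 (0.43). HSPE1 was not called without sg2 library 1 (0.074). MNT, a repressor that competes with MYC, was the 1 that fell (−0.27). It was not called without sg2 library 1 (0.0528), sg2 library 2 (0.0871), control library 1 (0.0589) or control library 3 (0.0676).

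The list of cytosolic ribosomal proteins had the largest number of genes called higher. Of 83 tested, 49 (59.0%) rose and none fell, against 5.45% called higher among all genes, and the median log2 fold change was 0.20. RPS29 had 46.9, 26.4 and 41.8 CPM in the sg2 libraries, against 21.8, 18.7 and 17.5 CPM in the control libraries (log2 fold change 0.99 ± 0.147, edgeR adjusted p = 0.000172). RPS27 had 331, 267 and 304 CPM in the sg2 libraries, against 184, 172 and 158 CPM in the control libraries (log2 fold change 0.81 ± 0.0691, edgeR adjusted p = 2.83e-07). RPLP2, of the ribosomal stalk, had 160.4 ± 20.1 CPM with sg2 and 98.2 ± 3.49 CPM with the control guide (SD, n = 3 each; log2 fold change 0.71 ± 0.0728, edgeR adjusted p = 3.25e-06). The groups were apart for all 3, though RPS29 varied widely between sg2 libraries. Ribosomal protein genes have many near-identical pseudogenes, with which reads can be shared. Without sg2 library 1, 29 were called higher, and 28 were called whichever library was left out. These mRNAs are short, and the share called varied with transcript length. In the tenth of genes with the shortest transcripts, with a median length of 991 bases, 10.6% were called higher and 2.32% lower, and in the tenth with the longest 4.57% higher and 6.22% lower. With a correction for length, the shortest transcripts had 5.55% in each direction, and 27 ribosomal protein genes were called higher and 3 lower, with a median of 0.11. The median log2 deviation of these shortest transcripts was −0.106 in control library 3 and between −0.003 and 0.055 in the other 5 libraries. The part of transcript length in the difference between sg2 and control libraries was not tested beyond this correction.

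**Figure D5:**
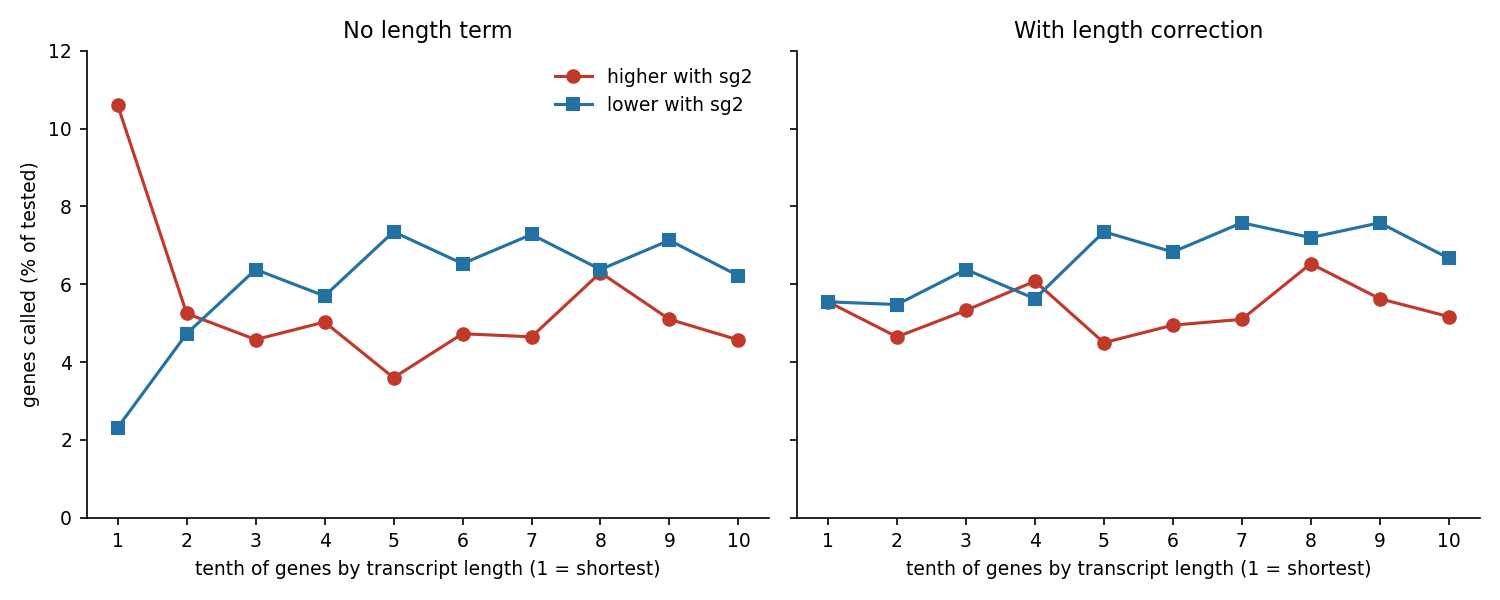
Share of tested genes called higher or lower with sg2 (y axis, in percent) by class of transcript length (x axis, 10 equal classes, 1 = shortest), without and with a correction for length. Without it the shortest class has 10.6% called higher and 2.32% called lower, with it 5.55% in both directions.

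Several further lists held mostly increases. Of 78 tested subunits of the respiratory chain and ATP synthase, 15 rose (19.2%) and none fell, with a median of 0.11. Among all genes 5.45% were called higher and 6.00% lower. ATP5ME (log2 fold change 0.78 ± 0.151, edgeR adjusted p = 0.00199) and UQCRQ, of complex III (log2 fold change 0.48 ± 0.0978, edgeR adjusted p = 0.0031), kept the call whichever library was left out. NDUFC2 (0.43) and NDUFB3 (0.42) of complex I did not, since NDUFC2 was not called without sg2 library 1 (0.0632) and NDUFB3 not without sg2 library 1 (0.0961), sg2 library 2 (0.0629) or control library 3 (0.066). The list had 3 called without sg2 library 1, and 8 called higher and 3 lower with the correction for length. Mitochondrial ribosomal proteins had 7 of 77 higher (9.09%) and 1 lower (1.3%), and 1 of these, MRPL3 (0.33), kept its call whichever library was left out. Proteasome subunits had 5 of 37 higher (13.5%), with PSMA2 (0.32) and PSMB3 (0.28) called in every such fit. Cytosolic chaperones had 12 of 28 higher (42.9%) and none lower. CHORDC1, a partner of HSP90 (log2 fold change 0.50 ± 0.0952, edgeR adjusted p = 0.00169), and CCT4, of the CCT chaperonin (log2 fold change 0.32 ± 0.0696, edgeR adjusted p = 0.00466), kept the call, while 4 members were called without sg2 library 1 and 5 without control library 1. HSPA8 (0.30) was not called without sg2 library 1 (0.0563), sg2 library 2 (0.137) or control library 1 (0.109). HSP90AA1 (0.26) was not called without sg2 library 1 (0.0519), sg2 library 2 (0.0971) or control library 1 (0.106).

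Of 64 tested genes with symbols of translation factors, 9 rose (14.1%) and 3 fell (4.69%), against 5.45% and 6.00% of all genes. The list went by symbol, so genes that are not such factors themselves are counted too, EIF4ENIF1 among them. EEF1B2, an exchange factor of elongation (log2 fold change 0.33 ± 0.0582, edgeR adjusted p = 0.000817), EIF5A2 (0.31) and EIF1AX (0.26) kept the call whichever library was left out, and EIF4ENIF1 (−0.24) lost it without any 1 of the 6 libraries (edgeR adjusted p from 0.0713 to 0.152). Of 20 aminoacyl-tRNA synthetases, 10.0% were called higher and 5.0% lower. VARS1 was lower (log2 fold change −0.33 ± 0.0533, edgeR adjusted p = 0.000397). The list had 2 members higher, TARS1 (0.18) and RARS1 (0.21), and neither was called without sg2 library 1 (edgeR adjusted p = 0.0613 and 0.133), sg2 library 2 (0.0514 and 0.227) or control library 1 (0.0995 and 0.157), nor RARS1 without control library 2 (0.101). Small nucleolar RNA host genes moved in both directions, with 4 of 25 higher and 2 lower. SNHG5 was higher (log2 fold change 0.50 ± 0.0949, edgeR adjusted p = 0.00169) and SNHG3 lower (log2 fold change −0.47 ± 0.0804, edgeR adjusted p = 0.000736). EPB41L4A-AS1 (0.56) is an antisense gene and its value is uncertain for the reason given above. SNHG30 (−0.80) was not called without sg2 library 1 (0.0583) or sg2 library 2 (0.0511).

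The lipid genes around DGAT1 mostly did not pass the test. Of 20 tested genes of triglyceride synthesis and lipid droplets, 2 fell (10.0%), DGAT1 and LPIN3, and none rose. Their median log2 fold change was −0.088. Among all genes 5.45% were called higher and 6.00% lower. LPIN3, a phosphatidate phosphatase that makes diacylglycerol, was at 32.8, 33.6 and 34.6 CPM in the sg2 libraries, against 44.6, 39.7 and 47.2 CPM in the control libraries (log2 fold change −0.38 ± 0.0826, edgeR adjusted p = 0.00466). DGAT2, the other diacylglycerol acyltransferase, was not called (log2 fold change −0.18 ± 0.146, edgeR adjusted p = 0.491), nor was PLIN2, a coat protein of lipid droplets (log2 fold change −0.02 ± 0.05, edgeR adjusted p = 0.888). DGAT2 and PLIN2 were chosen after their values were seen. Of 30 tested genes of lipolysis and fatty acid oxidation, 1 rose (3.33%) and 3 fell (10.0%). G0S2, an inhibitor of the lipase ATGL, was at 42.7, 39.1 and 54.7 CPM in the sg2 libraries, against 31, 28 and 25.8 CPM in the control libraries (log2 fold change 0.69 ± 0.107, edgeR adjusted p = 0.000279). ACADVL, the very long chain acyl-CoA dehydrogenase, fell (log2 fold change −0.42 ± 0.0705, edgeR adjusted p = 0.000624). ACADS, its short chain relative (−0.47), was not called without sg2 library 2 (0.0608), sg2 library 3 (0.0809), control library 1 (0.142) or control library 2 (0.0777). PPARGC1A, a coactivator of oxidative metabolism (−0.40), was not called without sg2 library 1 (0.0714), sg2 library 2 (0.0922), sg2 library 3 (0.0587), control library 1 (0.0655) or control library 3 (0.125).

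FABP5, a fatty acid binding protein with several pseudogenes, was at 74, 68.2 and 66.6 CPM in the sg2 libraries, against 48.2, 47.6 and 44.8 CPM in the control libraries (log2 fold change 0.57 ± 0.0692, edgeR adjusted p = 2.4e-05). ACSL4, which activates arachidonic acid (log2 fold change 0.24 ± 0.0571, edgeR adjusted p = 0.00877), was not called without control library 1 (0.0586). Both belong to a list of 11 tested genes of fatty acid uptake and activation, of which 2 rose (18.2%) and none fell. Among all genes 5.45% were called higher and 6.00% lower. Fatty acid synthesis and desaturation had 2 of 23 higher (8.7%), the elongase ELOVL5 (log2 fold change 0.23 ± 0.0556, edgeR adjusted p = 0.00893) and the desaturase FADS2 (log2 fold change 0.22 ± 0.0511, edgeR adjusted p = 0.00754). Of 27 genes of cholesterol synthesis and its regulation, 7 rose (25.9%) and 1 fell (3.7%), and the median was 0.15. SQLE, the squalene epoxidase, rose (log2 fold change 0.29 ± 0.0676, edgeR adjusted p = 0.0083), and SCAP, which escorts SREBP proteins to the Golgi, fell (log2 fold change −0.26 ± 0.0571, edgeR adjusted p = 0.00478). Both kept the call whichever library was left out. INSIG1 (0.29) was not called without sg2 library 2 (0.057) or control library 1 (0.0743). The number called higher was 2 without sg2 library 2 and 2 without control library 1.

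In signalling, immediate early genes and EGF receptor ligands split. Of 32 tested, 3 rose (9.38%) and 6 fell (18.8%), against 5.45% and 6.00% of all genes. FOS was at 56.9, 64.4 and 51.2 CPM in the sg2 libraries, against 87, 90.8 and 91 CPM in the control libraries (log2 fold change −0.64 ± 0.0733, edgeR adjusted p = 1.06e-05). EGR1, another early response factor, was at 163, 162 and 140.1 CPM in the sg2 libraries, against 231, 189.6 and 239 CPM in the control libraries (log2 fold change −0.50 ± 0.0745, edgeR adjusted p = 0.000173). Both were lower in all sg2 libraries, as was FOSB, while the ligand HBEGF and, chosen after its values were seen, the phosphatase DUSP5 (log2 fold change 0.49 ± 0.0794, edgeR adjusted p = 0.000441) were higher. The ligand TGFA, also chosen after its values were seen, was lower (log2 fold change −0.29 ± 0.0486, edgeR adjusted p = 0.00057). In the activin and TGF-beta list, 4 of 30 (13.3%) rose and none fell. Beside INHBA these were FSTL3, which binds and blocks activin (log2 fold change 0.35 ± 0.0627, edgeR adjusted p = 0.000889), FSTL1 (log2 fold change 0.34 ± 0.0593, edgeR adjusted p = 0.000727) and PMEPA1, a target of the pathway (log2 fold change 0.28 ± 0.0746, edgeR adjusted p = 0.02). PMEPA1 was not called without sg2 library 1 (0.12), sg2 library 3 (0.105) or control library 3 (0.0816). The receptors, such as ACVR1B (−0.15) and TGFBR1 (0.16), were not called, and these 2 were chosen after their values were seen. Of 33 NF-kB targets and acute-phase genes, 1 rose (3.03%) and 2 fell (6.06%). SERPINA1, or alpha-1-antitrypsin, fell (log2 fold change −0.38 ± 0.0669, edgeR adjusted p = 0.000869). IL11 (0.73) was not called without sg2 library 3 (0.0635) or control library 3 (0.0703), and ceruloplasmin, CP (−0.24), was not without sg2 library 1 (0.0769), sg2 library 2 (0.0525) or control library 1 (0.0743).

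Of 30 targets of p53, 7 fell (23.3%) and 3 rose (10.0%), against 6.00% and 5.45% of all genes, with a median of −0.14. CDKN1A, or p21, chosen after its values were seen, was at 517, 517 and 527 CPM in the sg2 libraries, against 676, 641 and 618 CPM in the control libraries (log2 fold change −0.31 ± 0.0484, edgeR adjusted p = 0.000285). ZMAT3 (log2 fold change −0.36 ± 0.0703, edgeR adjusted p = 0.00199) and FDXR (log2 fold change −0.44 ± 0.103, edgeR adjusted p = 0.00869) fell as well, and these 3 kept the call whichever library was left out. GADD45B rose (log2 fold change 0.33 ± 0.0655, edgeR adjusted p = 0.00236). BTG2 (−0.54) was not called without sg2 library 1 (0.113), control library 1 (0.0967) or control library 2 (0.0545). Without sg2 library 1 the list had 4 members lower.

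Of 30 markers of the kidney tubule 19 were tested, 6 fell (31.6%) and none rose, and the median was −0.14. Among all genes 6.00% were called lower and 5.45% higher. CDH16, the kidney-specific cadherin, was at 15, 14.2 and 15 CPM in the sg2 libraries, against 24.8, 23.2 and 25 CPM in the control libraries (log2 fold change −0.72 ± 0.102, edgeR adjusted p = 0.000117). FXYD2, a regulator of the sodium pump, was at 21.8, 22.3 and 23 CPM in the sg2 libraries, against 35.7, 33.6 and 31.4 CPM in the control libraries (log2 fold change −0.58 ± 0.0905, edgeR adjusted p = 0.000267). GGT1, of the brush border, had 140.3 ± 9.32 CPM with sg2 and 175 ± 5.81 CPM with the control guide (SD, n = 3 each; log2 fold change −0.32). The groups did not overlap for any of these 3, and all kept the call whichever library was left out.

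Mesenchymal and matrix genes moved in both directions, with 8 of 33 higher (24.2%) and 5 lower (15.2%), against 5.45% and 6.00% of all genes. SNAI2, a repressor of epithelial genes, was at 61.4, 70.5 and 58.3 CPM in the sg2 libraries, against 42.3, 47.1 and 51.5 CPM in the control libraries (log2 fold change 0.43 ± 0.0828, edgeR adjusted p = 0.00169). ACTA2, smooth muscle actin, was at 9.25, 6.94 and 11.1 CPM in the sg2 libraries, against 17, 14 and 15.2 CPM in the control libraries (log2 fold change −0.75 ± 0.151, edgeR adjusted p = 0.00259). MMP2, a matrix protease, was lower (log2 fold change −0.34 ± 0.0626, edgeR adjusted p = 0.00109). LUM and ACTA2 are also markers of fibroblasts and pericytes. The 12 markers of that list summed to between 26.8 and 34.5 CPM in the sg2 libraries and between 36.0 and 97.6 CPM in the control libraries. Control library 1 was the highest, with 298 counts of COL1A2, 154 of DCN and 88 of COL3A1, while the sg2 libraries had at most 3 of each. The part of such RNA in the values of LUM and ACTA2 was not tested. ACTA2 and MMP2 kept the call without control library 1, and LUM did not.

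Of the other lists of markers, leukocytes and endothelium summed to between 47.5 and 52.9 CPM in the sg2 libraries and between 54.9 and 69.6 CPM in the control libraries, most of it CD68, with PTPRC, CD3E and CDH5 at 0 in all 6 libraries. The 2 tested markers of that list moved in opposite directions. CD68, a lysosomal protein of macrophages, had 773, 579 and 695 counts in the sg2 libraries, against 773, 817 and 932 in the control libraries (log2 fold change −0.33, edgeR adjusted p = 0.0196). CSF1R, a receptor of macrophages, had 66, 70 and 58 counts in the sg2 libraries, against 32, 37 and 30 in the control libraries (log2 fold change 0.95, edgeR adjusted p = 0.0149). Neither was called without sg2 library 2 (0.0981 for CD68 and 0.067 for CSF1R), nor CD68 without control library 3 (0.135), nor CSF1R without control library 1 (0.0579). Both were named after their values were seen. Secretory genes of the airway epithelium summed to between 4.85 and 10.6 CPM in the sg2 libraries and between 0.541 and 5.06 CPM in the control libraries. SCGB1A1, a secretoglobin, had 63, 47 and 35 counts in the sg2 libraries, against 4, 4 and 24 in the control libraries (log2 fold change 2.13 ± 0.471, edgeR adjusted p = 0.00532). BPIFB1 had 52, 34 and 24 counts in the sg2 libraries, against 1, 8 and 17 in the control libraries (log2 fold change 2.03 ± 0.498, edgeR adjusted p = 0.0111). SFTPC was at 1 count in sg2 library 1 and 0 in the other 5. BPIFB1 was not called without sg2 library 1 (0.0913) or control library 1 (0.0578). The part of RNA from other cells in these values was not tested.

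A further list held targets of hypoxia-inducible factors, without separating the targets of one factor from those of another. Of 26 tested targets, 3 rose and 3 fell, with a median of −0.06. Both shares were above those of all genes, of which 5.45% were called higher and 6.00% lower. EGLN3, a prolyl hydroxylase that marks these factors for degradation, was at 113, 110.4 and 126 CPM in the sg2 libraries, against 143, 154 and 144 CPM in the control libraries (log2 fold change −0.34 ± 0.0608, edgeR adjusted p = 0.00104). NDRG1 (−0.32) was lower but not called without sg2 library 1 (0.0519). ANGPTL4, a secreted inhibitor of lipoprotein lipase (log2 fold change 0.51 ± 0.121, edgeR adjusted p = 0.00887), was higher but not called without sg2 library 3 (0.0607). VEGFA, the angiogenic growth factor, was not called (log2 fold change −0.19 ± 0.0663, edgeR adjusted p = 0.0679). Among 29 genes of glycolysis, 3 rose (10.3%) and 2 fell (6.9%), against 5.45% and 6.00% of all genes. PFKL, the liver isoform of phosphofructokinase, was at 144, 139 and 155 CPM in the sg2 libraries, against 221, 215 and 218 CPM in the control libraries (log2 fold change −0.58 ± 0.0552, edgeR adjusted p = 1.18e-06), without overlap. ENO2 (−0.23) was not called without sg2 library 2 (0.0882) or control library 1 (0.0759). PFKFB4 (0.25) was not called without sg2 library 1 (0.0826), sg2 library 2 (0.112), control library 1 (0.154) or control library 2 (0.0874). PGK1 (0.17) was not called without sg2 library 1 (0.167), sg2 library 2 (0.132), control library 1 (0.0917), control library 2 (0.0777) or control library 3 (0.0896). The third gene that rose, LDHA, had a log2 fold change of 0.17 and was not called without sg2 library 1 (0.0636), sg2 library 2 (0.109) or control library 1 (0.135). VEGFA and LDHA were chosen after their values were seen.

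JMJD6 belongs to the oxygenases that use 2-oxoglutarate. Of 60 other members tested, 2 rose and 9 fell. The share that rose was under the 5.45% of all genes, and the share that fell was above the 6.00%. The number called lower was 4 without sg2 library 1 and 4 without control library 1. EGLN3 and, chosen after its values were seen, P3H3, a collagen prolyl hydroxylase (log2 fold change −0.35 ± 0.0592, edgeR adjusted p = 0.000689), fell whichever library was left out, and OGFOD1, likewise chosen, rose (log2 fold change 0.32 ± 0.0647, edgeR adjusted p = 0.00274). TMLHE, of carnitine synthesis (−0.55), was not called without sg2 library 2 (0.0972), sg2 library 3 (0.0865), control library 1 (0.125) or control library 2 (0.0933). OGFOD3 (−0.36) was not called without sg2 library 1 (0.178), sg2 library 3 (0.14), control library 1 (0.0671), control library 2 (0.124) or control library 3 (0.0627). P4HTM (−0.35) was not called without sg2 library 2 (0.0972), sg2 library 3 (0.0534) or control library 1 (0.173).

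Splicing factors and partners of JMJD6 had 5 of 62 higher (8.06%) and 4 lower (6.45%), near the 5.45% and 6.00% of all genes, and a median log2 fold change of 0.004. U2AF2, the known substrate, was not called (log2 fold change 0.09 ± 0.0568, edgeR adjusted p = 0.346). CLK2, a kinase of SR proteins, was at 20.7, 15.2 and 15.4 CPM in the sg2 libraries, against 26.5, 21.3 and 28.6 CPM in the control libraries (log2 fold change −0.57 ± 0.128, edgeR adjusted p = 0.0063), and all sg2 values lay under the controls. SNRPG (log2 fold change 0.43 ± 0.0902, edgeR adjusted p = 0.00371) and SNRPE (log2 fold change 0.38 ± 0.0743, edgeR adjusted p = 0.00234), of the Sm ring of spliceosomal particles, were higher. PRPF40B and these 3 kept the call whichever library was left out. U2AF2 was chosen after its values were seen.

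Of stress response lists, the unfolded protein response had 1 of 24 higher (4.17%, against 5.45% of all genes). This was XBP1 (log2 fold change 0.17 ± 0.053, edgeR adjusted p = 0.0441), which lost its call without any 1 of the 6 libraries (edgeR adjusted p from 0.0572 to 0.122). The ATF4 list had 2 of 27 higher and 2 lower (7.41% each), near the 5.45% and 6.00% of all genes. NUPR1, a stress-induced nuclear protein, was lower (log2 fold change −0.41 ± 0.0726, edgeR adjusted p = 0.000992), while SHMT2 (−0.18) and MTHFD2 (0.16) of the mitochondrial folate pathway kept the call without sg2 library 3 and lost it without any other 1 of the 6 libraries (edgeR adjusted p from 0.056 to 0.175). SLC38A2 (0.18) was not called without sg2 library 1 (0.0699), sg2 library 2 (0.0504), control library 1 (0.0541) or control library 2 (0.0674). The NRF2 and thiol list had 3 of 35 higher (8.57%) and 2 lower (5.71%), also near those shares. TXN, or thioredoxin, was higher (log2 fold change 0.27 ± 0.0523, edgeR adjusted p = 0.00191) and ABCC3, an export pump, lower (log2 fold change −0.34 ± 0.07, edgeR adjusted p = 0.00315). PRDX1 (0.22) was not called without sg2 library 1 (0.0787), sg2 library 2 (0.144), control library 1 (0.126) or control library 3 (0.062), and EPHX1 (−0.23) was not without sg2 library 1 (0.209), sg2 library 3 (0.0845) or control library 3 (0.164).

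Among 225 tested solute carriers of 378, 12 (5.33%) rose and 16 (7.11%) fell, near the 5.45% and 6.00% of all genes. SLC26A2, a sulfate transporter, was higher (log2 fold change 0.46 ± 0.0628, edgeR adjusted p = 7.05e-05) and SLC33A2 lower (log2 fold change −0.69 ± 0.0854, edgeR adjusted p = 3.05e-05), both whichever library was left out. The zinc transporter SLC39A4 (−0.51) was not called without sg2 library 1 (0.0605), sg2 library 2 (0.117), control library 1 (0.0828) or control library 3 (0.073). Of 436 numbered zinc finger genes, 4 rose and 17 fell, both under the shares over all genes. The largest were ZNF461 (−0.78), ZNF117 (−0.71), ZNF767P (−0.61) and ZNF354B (−0.60), and each lost its call without control library 3 (edgeR adjusted p from 0.0556 to 0.199) and without at least 1 of the sg2 libraries (from 0.057 to 0.0981), and ZNF117 and ZNF354B also without control library 1 (0.0519 and 0.154). Of 757 tested long noncoding genes 5.02% were called, and of 12324 protein-coding genes 11.9%, a difference that was not tested. Of 120 tested LINC genes, 3 rose (2.5%) and 7 fell (5.83%), and no one of them kept its call whichever library was left out. LINC02532 had 18, 10 and 21 counts in the sg2 libraries, against 49, 38 and 33 in the control libraries (log2 fold change −1.31 ± 0.344, edgeR adjusted p = 0.0169). It was not called without sg2 library 1 (0.0628), sg2 library 2 (0.0725) or control library 1 (0.105). LINC02432 (−0.82) was not called without sg2 library 1 (0.109), sg2 library 2 (0.0819), control library 1 (0.0662) or control library 2 (0.137). LINC03011 (−0.81) was not without sg2 library 1 (0.107), sg2 library 2 (0.0576), control library 1 (0.122) or control library 2 (0.0513). LINC02985 (0.94) was not without sg2 library 1 (0.198), sg2 library 2 (0.0589), sg2 library 3 (0.0567), control library 2 (0.092) or control library 3 (0.146). Of 7 tested histone genes that follow replication, none was called, and the other 62 did not pass the filter.

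The sg4 libraries, fitted with the other 6, served as a check. JMJD6 was at 17.1, 16 and 17.3 CPM with sg2 and at 11.7, 14.4 and 10.7 CPM with sg4, on the scale of that fit. The difference, 0.45 ± 0.113 in sg2 minus sg4, was not called (edgeR adjusted p = 0.258). For DGAT1 the difference was −0.17 ± 0.0921 (edgeR adjusted p = 0.553), for INHBA 0.21 ± 0.086 (0.438) and for STAT2 −0.12 ± 0.0845 (0.652). For OAS2 it was −0.75 ± 0.246 (0.34) and for MX2 −1.28 ± 0.372 (0.292), also not called. Against the control, STAT2 was called lower with sg4 (log2 fold change −0.57, edgeR adjusted p = 0.000116). OAS2 (−0.23, edgeR adjusted p = 0.601) and MX2 (−0.04, edgeR adjusted p = 0.965) were not called with sg4. Only 8 of 13530 genes differed between the guides at an adjusted p under 0.05, or 0.0591%, of which 2 were higher and 6 (0.0443%) lower with sg2. At an unadjusted p under 0.05 there were 1337, and DESeq2 called 38. FXYD2, among the tubule genes above, was at 21.8, 22.3 and 22.9 CPM with sg2 and at 29.0, 34.6 and 36.4 CPM with sg4, and the sg4 values overlapped those of the controls, at 35.6, 33.6 and 31.3 CPM (−0.58 ± 0.0963, edgeR adjusted p = 0.015). DPP7 was at 73.3, 65.9 and 67.8 CPM with sg2 and at 80.8, 98.7 and 104 CPM with sg4 (−0.45 ± 0.077, edgeR adjusted p = 0.015). No gene was called without sg2 library 1, sg4 library 2 or sg4 library 3, 3 were without control library 1, 4 without sg2 library 3, 14 without sg2 library 2 and 49 without sg4 library 1.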

How the data were processed

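RNA-seq of 786-O cells gave 3 libraries with guide sg2, 3 with a control guide and 3 with guide sg4. The deposited files hold, per the file headers, a Salmon estimated count and a TPM for each RefSeq transcript. The submitters' processing notes name cutadapt 1.12, STAR 2.5.2b, Salmon, DESeq2 and the builds hg19 and GRCh37, without roles. The strand setting is not given in the sources used here. The estimated counts as deposited were all whole numbers and were used as they stood. TPM values as deposited were summed per gene.

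Counts were summed over transcripts matched to genes of GRCh38.p14, used for names and promoter sequences only: 58031 of 60422 transcripts (96.04%), 26809 genes. Unmatched transcripts held from 1.326% to 1.647% of counts. filterByExpr, TMM and glmQLFTest of edgeR 4.0.16 (R 4.3.3) were run on the 6 libraries, 2-sided. The difference between sg2 and sg4 came from a fit of 9 libraries. Alternatives were that fit, DESeq2 1.42.0, RLE normalisation, no filter, each library left out, a replicate block, and a correction for transcript length with and without the block. An exact permutation test of 3 libraries against 3 cannot go below p = 0.1. On data simulated for sg2 against control, 13235 genes were tested. Of these, 50 truly changed 1.25-fold, 50 1.5-fold, 49 2-fold and 49 3-fold. The share found was 44.0% for a 1.25-fold change, 68.0% for 1.5-fold, 91.8% for 2-fold and 100.0% for 3-fold, with 7.98% false among the calls. In the data themselves 11.4% of genes were called, far more than were changed in the simulation. Because the adjusted p depends on that number, these shares do not give the sensitivity of the comparison. No pair of libraries of a group matched within sampling noise (chi-square per gene from 3.336 to 6.707).

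The comparison, the 37 gene lists and 4 marker lists were chosen with earlier results of these data known. The naming rule took JMJD6, DGAT1, the 15 largest called changes in each direction at a mean log2 CPM of 2 or more, up to 4 called members per list, tested neighbours of JMJD6, and up to 5 genes in each direction that differed between sg2 and sg4 and from the control. Y-linked genes are not named, and the results of some genes that the rule takes are not reported here. ChIP data were not used here.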

Additional observations from a re-analysis of the deposited data

Results flagged for a closer look

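The response to sg2 and the response to sg4 differed, by the test of sg2 minus sg4 in the fit of 9 libraries, for 5 of the named genes. The naming rule took these 5 because this test called them, so their number is not a separate result. Over all genes tested, 8 of 13530 (0.0591%) were called. Both guides share the 3 control libraries. DLC1, a GTPase-activating protein, was at 88.0, 86.1 and 93.0 CPM with sg2 and at 72.4, 72.3 and 66.4 CPM with sg4, a log2 difference of 0.339 (edgeR adjusted p = 0.0388). FXYD2 differed by −0.576 (edgeR adjusted p = 0.015). DPP7 differed by −0.454 (edgeR adjusted p = 0.015), although sg4 lowered it too against the control (log2 fold change −0.33, edgeR adjusted p = 0.00617). SERPINA1 was at 79.0, 80.5 and 94.3 CPM with sg2 and at 102, 107 and 123 CPM with sg4, and differed by −0.386 (edgeR adjusted p = 0.0388). SDC1, a heparan sulfate proteoglycan, was at 231, 228 and 225 CPM with sg2 and at 276, 280.5 and 276 CPM with sg4, and differed by −0.281 (edgeR adjusted p = 0.0349). None of the 5 was called without sg2 library 1, sg4 library 2 or sg4 library 3, 2 were called without sg2 library 3 or without control library 1, and 4 without sg2 library 2. With the replicate block none of the 5 was called. The other 3 genes called in this test were C3, SOD2 and MTUS1, named after their values were seen, with log2 differences of −0.44, −0.39 and 0.38.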

How the results depend on the processing

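JMJD6 and DGAT1 kept their direction and their call under all 13 alternatives. The number of genes called higher was between 317 and 688 with 1 library left out, and the number called lower between 407 and 699, with the lowest values without sg2 library 1 and control library 1. It was 677 higher and 725 lower in the fit of 9 libraries, 682 and 664 with DESeq2, 745 and 778 with RLE normalisation, 865 and 968 without the filter and 713 and 883 with the length correction. The libraries' numbers did not pair them, with correlations of same-numbered deviations of 0.061, 0.076 and −0.034, and not every library correlated best with its own number. With the replicate block 751 genes were higher and 821 lower, and with the block and the length correction 683 and 860. Of the named calls, 3 were lost under the block and 47 without sg2 library 1. The number of genes that differed between sg2 and sg4 was 2 with the block, 72 without the filter and 38 with DESeq2. For uncalled neighbours of JMJD6 near 0 the sign turned. With 1 library left out, the log2 fold change of METTL23 was between −0.118 and 0.019, of SRSF2 between −0.068 and 0.061, of MGAT5B between −0.252 and 0.026, of SEC14L1 between −0.069 and 0.006 and of PRPSAP1 between −0.1 and 0.016. That of SRSF2 was 7.4e-05 with DESeq2, 0.005 with the length correction and 0.003 with the block and the length correction. The cause was not tested in any of these.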
